A study of Mus musculus with 13 samples.

Results

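Open chromatin around 8 genes of the cartilage and bone programme, Sox9, Sox5, Sox6, Runx2, Runx3, Sp7, Acan and Matn1, was compared between limb and forebrain and between 2 genotypes of mouse embryos. A region was counted when its strongest summit lay within 100 kb of the body of one of these genes, or within 1 Mb of Sox9, in GENCODE M21 on mm10. Of 1357031 regions with a position of their own in 13 libraries, 3940 met this rule, 1337 of them around Sox9, 826 around Sox5 and 703 around Sox6. The other 5 loci held 326 (Runx2), 237 (Sp7), 183 (Acan), 180 (Runx3) and 148 (Matn1). The rule assigns a region by distance alone, so some lie over the starts of neighbouring genes.

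The libraries were made by ATAC-seq, which marks accessible DNA by the insertions of the Tn5 transposase, from 50000 cells each of E12.5 embryos on the B6CBAF1 background. Tissue came from distal forelimb (DFL, the future digits), proximal forelimb (PFL, the future arm) and forebrain (FB), each from wild-type embryos (wt) and from embryos homozygous for the allele 542. Allele 542 holds 1 copy of II1, a distal limb enhancer of the HoxD cluster, with a beta-globin promoter and LacZ, placed in the regulatory domain on the other side of HoxD on chromosome 2, and comes from a single founder line. Each of the 6 groups has 2 replicates, which are pools of tissue from several embryos. The p-values measure the spread between such pools only where the libraries compared have a called region. One more library of wt DFL, by its label an older sample that was processed again, entered no group and is given where named. No member gene lies on chromosome 2.

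SOX9 is the transcription factor that commits mesenchymal cells to cartilage, and SOX5 and SOX6 are related factors that lack a transactivation domain of their own and act with SOX9 on cartilage matrix genes. RUNX2 and SP7 (Osterix) act in sequence to make bone-forming cells, and RUNX3 shares the work of RUNX2 in maturing chondrocytes. Acan encodes aggrecan, the large proteoglycan of cartilage, and Matn1 encodes matrilin 1, a cartilage matrix protein. Sox9, Sox5 and Sox6 are also used outside the skeleton, among others in neural progenitors and neurons of the forebrain, and Sox9 lies in a gene-poor domain that is known to hold distant enhancers for several tissues.

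The values used below are folds, the ratio of tags at a region's summit to the local background in the same library, as the peak caller gave them. To follow a region across libraries, the 50000 strongest regions of each of the 12 grouped libraries were joined into 83823 consensus regions found in at least 2 libraries, of which 241 belonged to the member loci. Sox9 had 84 of these (37 upstream of its start and 47 downstream), Sox5 48, Sox6 47, Runx2 19, Sp7 14, Matn1 11, Acan 10 and Runx3 8. Per Mb of window this was 66.5 around Sp7, 61.2 around Sox6, 52.1 around Matn1, 41.9 around Sox9, 41.6 around Sox5, 38.2 around Acan, 36.6 around Runx2 and 31.1 around Runx3. Of the 241, 110 lay in introns, 86 between genes, 38 over a transcription start and 7 in other exons. Of the Sox5 regions 37 of 48 and of the Sox6 regions 29 of 47 were intronic, 46 of the 84 around Sox9 were intergenic, and 9 of the 14 around Sp7 lay over starts, none of them that of Sp7 itself. A library without a region at a position was given the lowest fold it had called anywhere, 1.37 to 1.64 in the 12 libraries, so a difference from a tissue with no region depends on this floor, and such libraries are written as uncalled. Where every library of a tissue was uncalled, the spread in that tissue is that of the floors, not of pools, and enters SE and p-value. Such a region is in the set only through the tissues where it was called, so its p-value is no separate support for the difference.

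Libraries differed in depth. The tag total estimated from the deposited values was 44.0 to 54.5 M in wt DFL, 40.2 to 41.4 M in 542 DFL, 48.8 to 52.7 M in wt PFL, 37.5 to 37.9 M in 542 PFL, 56.6 to 70.7 M in wt FB and 51.4 to 64.5 M in 542 FB (M for megatags). The libraries held 85070 to 118297 regions each, of which 221 (542 PFL replicate 2) to 356 (wt PFL replicate 2) were at the member loci. The additional wt DFL library, at 78.0 M tags, held 131691 regions and 488 at the member loci.

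Below are 200 bp of the mm10 reference (GRCm38, plus strand, 5′ to 3′) around the mean summit of 8 of these regions, shown because they rank first or second by the difference in at least 1 tissue comparison and direction and overlap no annotated exon. Capitals mark matches, on either strand, to 1 of 6 short motifs, ACAATG and ACAAAG for SOX factors, TGTGGT for RUNX factors, TGACAG for MEIS factors, CAATAAA for HOX13 and TAATTA for homeodomain factors, each chosen as a common short form and none overlapping another in these windows.
Sox9, 133.1 kb upstream, open in the DFL libraries, chr11:112649037-112649236: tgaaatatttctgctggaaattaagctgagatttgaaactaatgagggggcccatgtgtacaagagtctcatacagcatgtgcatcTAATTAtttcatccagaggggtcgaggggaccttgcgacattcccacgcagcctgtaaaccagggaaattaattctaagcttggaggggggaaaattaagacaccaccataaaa
Sox5 intron, 318.1 kb from its first start, open in the DFL libraries, chr6:144463762-144463961: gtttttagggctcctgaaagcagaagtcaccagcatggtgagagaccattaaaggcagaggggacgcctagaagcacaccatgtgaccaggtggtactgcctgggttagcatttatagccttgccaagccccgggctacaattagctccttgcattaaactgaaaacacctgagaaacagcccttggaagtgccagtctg
Sox9, 842.8 kb upstream, open in the PFL libraries, chr11:111939306-111939505: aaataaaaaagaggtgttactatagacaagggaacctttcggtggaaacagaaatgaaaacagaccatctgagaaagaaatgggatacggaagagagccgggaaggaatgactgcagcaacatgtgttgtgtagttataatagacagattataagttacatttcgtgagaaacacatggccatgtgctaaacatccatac
Sox9, 410.9 kb upstream, open in the PFL libraries, chr11:112371288-112371487: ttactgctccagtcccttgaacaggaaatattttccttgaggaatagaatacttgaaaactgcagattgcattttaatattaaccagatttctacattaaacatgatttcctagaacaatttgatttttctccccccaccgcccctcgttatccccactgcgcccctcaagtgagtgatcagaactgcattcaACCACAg
Runx2, 382.1 kb downstream of its first start, open in the limb libraries, chr17:44432625-44432824: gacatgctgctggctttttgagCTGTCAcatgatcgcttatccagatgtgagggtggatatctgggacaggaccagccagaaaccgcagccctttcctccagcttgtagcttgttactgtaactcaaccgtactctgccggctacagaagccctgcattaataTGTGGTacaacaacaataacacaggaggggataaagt
Sox5 intron, 482.3 kb from its first start, open in the limb libraries, chr6:144299487-144299686: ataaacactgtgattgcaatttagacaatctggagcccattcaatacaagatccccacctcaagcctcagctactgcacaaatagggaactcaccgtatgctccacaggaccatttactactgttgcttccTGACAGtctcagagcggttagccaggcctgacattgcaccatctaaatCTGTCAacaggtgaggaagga
Sox9, 280.2 kb upstream, open in the FB libraries, chr11:112501919-112502118: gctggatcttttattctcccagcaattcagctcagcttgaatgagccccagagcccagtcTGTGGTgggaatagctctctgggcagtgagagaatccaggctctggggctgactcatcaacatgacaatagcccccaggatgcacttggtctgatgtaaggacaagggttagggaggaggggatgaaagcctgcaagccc
Sox9, 584.3 kb upstream, open in the FB libraries, chr11:112197814-112198013: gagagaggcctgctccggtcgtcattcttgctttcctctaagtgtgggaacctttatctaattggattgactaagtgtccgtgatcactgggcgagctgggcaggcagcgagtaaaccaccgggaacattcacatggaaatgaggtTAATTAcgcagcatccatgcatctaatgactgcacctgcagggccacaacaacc

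None of the 8 windows held either SOX form. A RUNX form stood in the Runx2 window, in the Sox9 window 410.9 kb upstream and in the forebrain window 280.2 kb upstream, a homeodomain form in the DFL window 133.1 kb upstream and in the forebrain window 584.3 kb upstream, and MEIS forms in the Runx2 window and, 2 times, in the Sox5 window of the limb. A match shows only that the letters are there. Over all 241 member windows of 200 bp, ACAATG was present in 12.45% against 10.19% of all 83823 windows, ACAAAG in 17.84% against 17.01%, TGTGGT in 14.11% against 13.4%, TGACAG in 19.5% against 15.08%, CAATAAA in 4.15% against 4.66% and TAATTA in 12.03% against 9.76%. Among the member windows higher in DFL than in PFL, TAATTA was in 11 of 51 (21.57%), against 17.51% of all windows higher in DFL. Among those higher in PFL it was in 1 of 29 (3.45%), against 3.63% of all. CAATAAA was in 2 of the 51 member windows higher in DFL (3.92%), against 10.59% of all windows of that direction. These counts are small and were not tested.

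The start of Sox9 (ENSMUSG00000000567.5, chr11:112782224-112787760, plus strand) was open in all 12 libraries at close levels. In the order replicate 1 and 2 of wt, then of 542, used throughout, the fold of the region over the start was 8.18, 8.76, 9.32 and 9.91 in DFL, 8.34, 7.03, 7.22 and 9.002 in PFL, against 9.61, 9.48, 10.1 and 9.01 in FB. The highest PFL library lay within the range of the DFL libraries and just under the lowest FB library. DFL and FB were not told apart (log2 difference −0.08 ± 0.10 (SE), adjusted p = 0.498, limma across all consensus regions with Benjamini-Hochberg adjustment). PFL was lower than FB by a little (−0.28 ± 0.10, adjusted p = 0.0338). That call was lost when any 1 of wt PFL replicate 2, 542 PFL replicate 1, wt FB replicate 1, wt FB replicate 2 or 542 FB replicate 1 was left out (adjusted p from 0.0632 to 0.116), and under quantile normalization or with depth as a covariate. The long non-coding gene BC006965 starts in the same region.

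Sox5 and Sox6 have several starts, and these were not open alike. At Sox5 (ENSMUSG00000041540.16, chr6:143828425-144781977, minus strand), the start 572.4 kb into the gene, which begins 4 protein-coding transcripts, was open in every library, with folds of 8.08, 7.20, 8.998 and 8.09 in DFL, 7.75, 7.99, 9.30 and 10.3 in PFL, against 7.87, 8.15, 7.39 and 8.66 in FB. No tissue comparison passed the test. The outermost start, that of 2 non-coding transcripts, was open in all 12 libraries but less in limb. Its folds were 4.39, 3.33, 3.83 and 4.21 in DFL, 4.80, 5.47, 4.47 and 4.05 in PFL, against 6.23, 7.17, 6.43 and 6.10 in FB. FB was above both limb tissues without overlap (DFL minus FB −0.72 ± 0.14, adjusted p = 0.00119, and PFL minus FB −0.47 ± 0.14, adjusted p = 0.0128). With depth as a covariate the adjusted p were 0.103 and 0.371, and without wt FB replicate 2 that of PFL minus FB was 0.0538. Another start, 577.6 kb into the gene, had folds of 5.84, 6.70, 6.21 and 5.44 in FB and of 2.96 and 3.43 in wt DFL, and was uncalled in 542 DFL and in every PFL library. The innermost start was uncalled in every library.

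At Sox6 (ENSMUSG00000051910.13, chr7:115470872-116038796, minus strand), the outermost of 9 start clusters was uncalled in all libraries and the start 214.1 kb into the gene was open in all limb libraries. It had folds of 8.75, 6.88, 6.42 and 6.17 in DFL and of 5.32, 7.19, 4.87 and 4.66 in PFL, whereas in FB only 542 replicate 1 had a region, at 3.17. Each limb library was above each FB library (DFL minus FB 1.99 ± 0.23, adjusted p = 3.35e-05, and PFL minus FB 1.63 ± 0.23, adjusted p = 0.000132). The consensus region over the start 440.9 kb into the gene, the start of 1 non-coding transcript, had folds of 7.36, 5.76, 6.71 and 8.08 in DFL and of 8.87, 8.89, 6.08 and 6.54 in PFL, and in FB it was called only in wt replicate 1, at 4.67. The start itself was covered by a region in the 4 PFL libraries and, of DFL, in wt replicate 2 alone. Its differences from FB were 1.84 ± 0.32 (adjusted p = 0.000644) and 1.95 ± 0.32 (adjusted p = 0.000412). The start 4.3 kb into the gene went the other way, with folds of 2.31 to 3.79 in the 8 limb libraries and of 4.61 to 5.21 in the 4 FB libraries (DFL minus FB −0.68 ± 0.16, adjusted p = 0.00435, and 0.138 with depth as a covariate). At 7.7 kb, the start of 2 protein-coding transcripts was called in both wt PFL libraries and wt FB replicate 2, at 1.82 to 2.25. Those at 43.7, 178.9, 192.6 and 376.4 kb were uncalled in the 12 libraries. Of the starts of protein-coding transcripts, only that at 214.1 kb was covered by a region across limb. A start is called here only where a region covers it. Regions called in all 12 libraries lay beside the outermost start (chr7:116039220-116040558, summit 1.6 kb upstream) and near that at 7.7 kb (chr7:116031705-116033449).

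**Figure D1:**
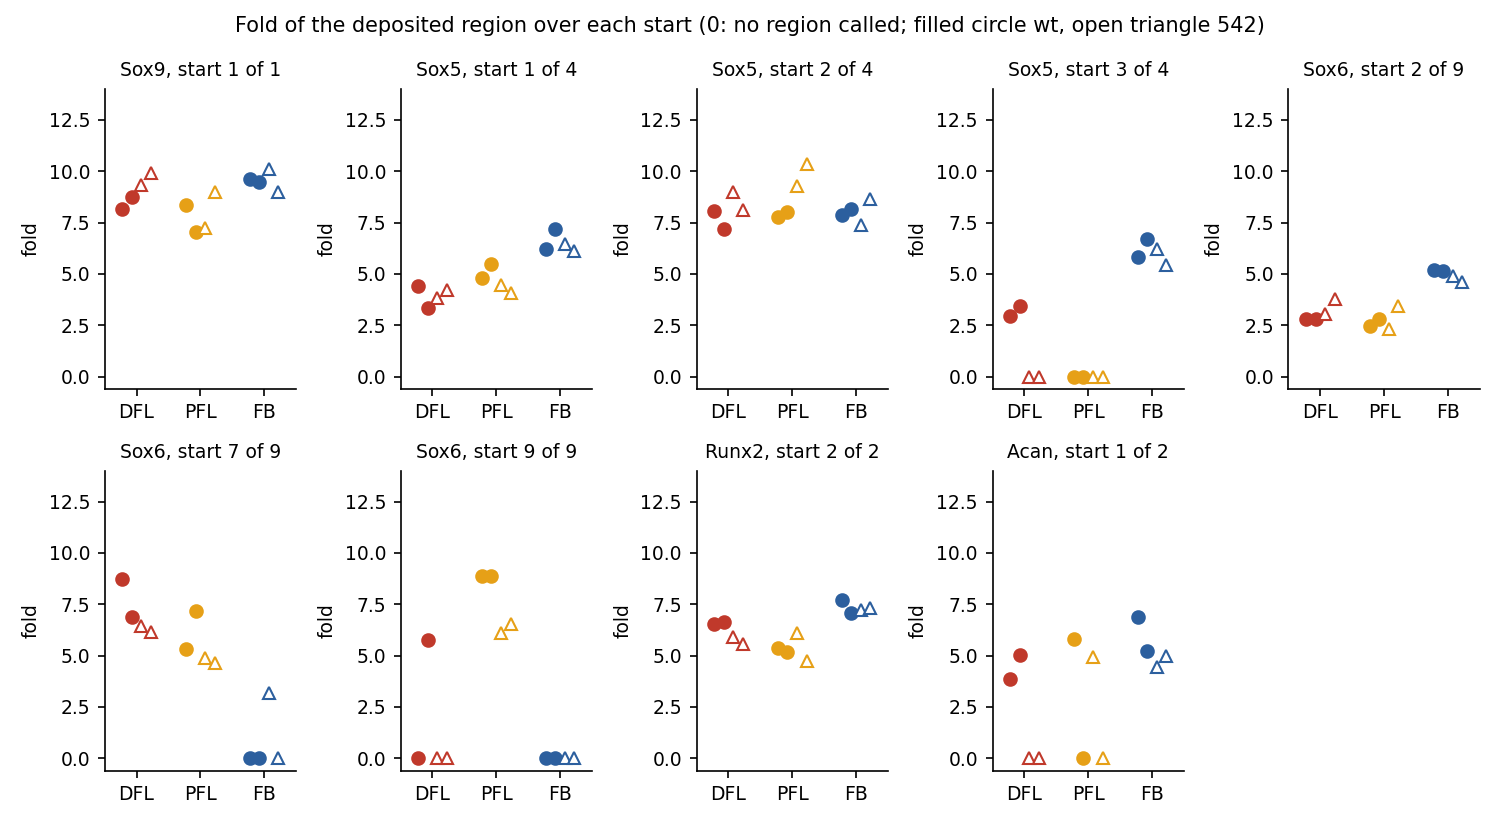
Fold of the deposited region over each member start that has a consensus region, by tissue, 1 point per library (filled circles wt, open triangles 542). A value of 0 means that no region covers the start itself. The start of Sox9 and the second start of Sox5 lie between 7.03 and 10.3 in every library, and the Sox6 start 7 is high in the 8 limb libraries and called in 1 FB library.

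Of the bone regulators, Runx2 had 1 start that was open in all libraries. At Runx2 (ENSMUSG00000039153.16, chr17:44495987-44814797, minus strand), the outer start was called only in the wt PFL libraries, at folds of 3.06 and 3.92, and the inner start, 78.1 kb into the gene, was open in all 12. The inner start had folds of 6.53, 6.61, 5.91 and 5.54 in DFL, 5.36, 5.18, 6.12 and 4.73 in PFL, against 7.71, 7.08, 7.24 and 7.30 in FB. All FB libraries were above all limb libraries, and PFL minus FB was −0.46 ± 0.11 (adjusted p = 0.00531), with adjusted p = 0.187 when depth was a covariate. DFL minus FB did not pass (adjusted p = 0.0729). The antisense gene Runx2os1 starts in the same region.

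At Sp7 (ENSMUSG00000060284.7, chr15:102356606-102367182, minus strand), the start had weak regions in the 4 DFL libraries, at 3.67, 3.25, 3.16 and 3.07, none in PFL, and regions in 2 of 4 FB libraries, at 3.85 and 2.92. At Runx3 (ENSMUSG00000070691.10, chr4:135120652-135177990, plus strand), the first start was called in 542 DFL replicate 2 at 3.21 and in both wt PFL libraries at 4.90 and 3.57. The second start was called in all PFL libraries at 3.88, 3.89, 3.87 and 3.04, in the replicates 2 of DFL at 3.38 (wt) and 3.70 (542), and in 3 of 4 FB libraries at 2.45 to 3.12. None of these starts was strong enough to enter the consensus regions, so they were not tested.

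The consensus region over the first Acan start (ENSMUSG00000030607.7, chr7:79053483-79115099, plus strand) had folds of 3.88, 5.01, 2.77 and 3.98 in DFL, 5.80, 6.07, 4.92 and 4.56 in PFL, against 6.89, 5.25, 4.43 and 4.97 in FB. DFL minus FB was −0.47 ± 0.17 (adjusted p = 0.0316). This call was lost when any 1 of wt DFL replicate 1, 542 DFL replicate 1, wt FB replicate 1 or either 542 FB replicate was left out (adjusted p from 0.0512 to 0.122). The region overlaps the non-coding gene Gm26633. The start itself was covered by a called region in the 4 FB libraries, in both wt DFL libraries and in the replicates 1 of PFL. The second Acan start, 46.3 kb into the gene, was uncalled in every library. The Matn1 start (ENSMUSG00000040533.7, chr4:130944385-130955475, plus strand) was called in 1 of the 12 libraries, wt PFL replicate 2, at a fold of 2.296.

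The number of strong regions within 100 kb was counted among the 50000 strongest of each library, so that every library contributed a list of the same length, and fitted with limma over the loci of 19282 protein-coding genes. Around Sox9 the libraries had 3, 2, 4 and 2 such regions in DFL, 2, 2, 2 and 2 in PFL, against 7, 8, 9 and 8 in FB. Every FB library had more than every limb library, with means of 2.75 ± 0.957 (SD, n = 4), 2.0 ± 0.0 and 8.0 ± 0.816. On the scale of log2(number + 1), DFL minus FB was −1.29 ± 0.17 (SE, adjusted p = 0.00156) and PFL minus FB −1.58 ± 0.17 (adjusted p = 0.000675), and DFL and PFL were not told apart (adjusted p = 0.349). With all deposited regions counted, the numbers were 10, 10, 8 and 10 in DFL, 8, 14, 7 and 6 in PFL, against 12 in each FB library, and DFL minus FB was −0.31 (adjusted p = 0.157). The FB libraries were also the deeper ones, and with depth as a covariate DFL minus FB was −1.08 (adjusted p = 0.100) and PFL minus FB −1.36 (adjusted p = 0.0688).

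The other SOX genes did not share this pattern. Around Sox6 the libraries had 26, 23, 23 and 30 strong regions in DFL, 25, 24, 25 and 22 in PFL, against 16, 15, 21 and 22 in FB. DFL was higher than FB without overlap (0.45 ± 0.09, adjusted p = 0.0078), and with depth as a covariate the difference was 0.51 (adjusted p = 0.141). PFL and FB met at 22 (0.37, adjusted p = 0.0154), and that call was lost when any 1 of 542 PFL replicate 1, wt FB replicate 2 or 542 FB replicate 1 was left out (adjusted p from 0.0505 to 0.0524). Around Sox5 the numbers were 21, 30, 23 and 28 in DFL, 20, 21, 16 and 23 in PFL, against 23, 25, 24 and 25 in FB. The tissues overlapped. No Sox5 comparison passed (adjusted p = 0.217 for DFL and PFL, 0.800 for DFL and FB, 0.179 for PFL and FB).

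Runx2 and Acan had more strong regions in limb. Around Runx2 there were 14, 14, 14 and 13 in DFL, 12, 10, 12 and 12 in PFL, against 7, 7, 5 and 6 in FB, in 3 ranges that did not overlap. DFL minus FB was 1.03 ± 0.07 (adjusted p = 9.01e-05) and PFL minus FB 0.79 ± 0.07 (adjusted p = 0.00027). The step from DFL to PFL did not pass over all loci (0.24 ± 0.07, adjusted p = 0.0792). Among the 20000 strongest regions per library, DFL minus FB at Runx2 was 0.00 (adjusted p = 1.00) and PFL minus FB 0.58 (adjusted p = 0.117). Around Acan there were 8, 9, 7 and 8 in DFL, 9, 9, 8 and 7 in PFL, against 6, 5, 4 and 4 in FB, again without overlap of limb and FB (DFL minus FB 0.66 ± 0.07, adjusted p = 0.000798, and PFL minus FB 0.69 ± 0.07, adjusted p = 0.000621).

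Around Runx3 there were 5, 5, 5 and 4 strong regions in DFL, 9, 6, 7 and 5 in PFL, against 4, 1, 3 and 4 in FB. PFL minus FB was 1.02 ± 0.29 (adjusted p = 0.0312). This call was lost when any 1 of 7 libraries was left out, namely either wt DFL, wt PFL replicate 1, either 542 PFL or either 542 FB replicate (adjusted p from 0.0517 to 0.0954). Around Matn1 FB was higher, with 4, 5, 3 and 5 in DFL, 5, 4, 4 and 3 in PFL, against 8, 7, 7 and 8 in FB (DFL minus FB −0.71 ± 0.15, adjusted p = 0.0116), and with depth as a covariate the difference was −0.89 (adjusted p = 0.131). Sp7 had 12, 14, 15 and 13 in DFL, 13, 13, 14 and 15 in PFL, against 13, 11, 13 and 11 in FB, and no comparison passed.

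Of the 8 loci, 3 thus had more strong regions in DFL than in FB (Sox6, Runx2, Acan) and 2 fewer (Sox9, Matn1), where 16.3% and 18.4% of all protein-coding loci did. Between PFL and FB, 4 had more in PFL (Sox6, Runx2, Runx3, Acan) and 2 fewer (Sox9, Matn1), where 18% and 18.7% of all loci did. Between DFL and PFL none of the 8 passed in either direction, against 3.36% and 3.44% of all loci. For DFL against PFL the permutation test of single loci, whose smallest p is 0.0286 for 4 libraries against 4, gave that p for Runx2 alone of the 8 (exact, two-sided, unadjusted). In these bulk tissues, fewer cells with an open region and a less open region in each cell cannot be told apart.

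**Figure D2:**
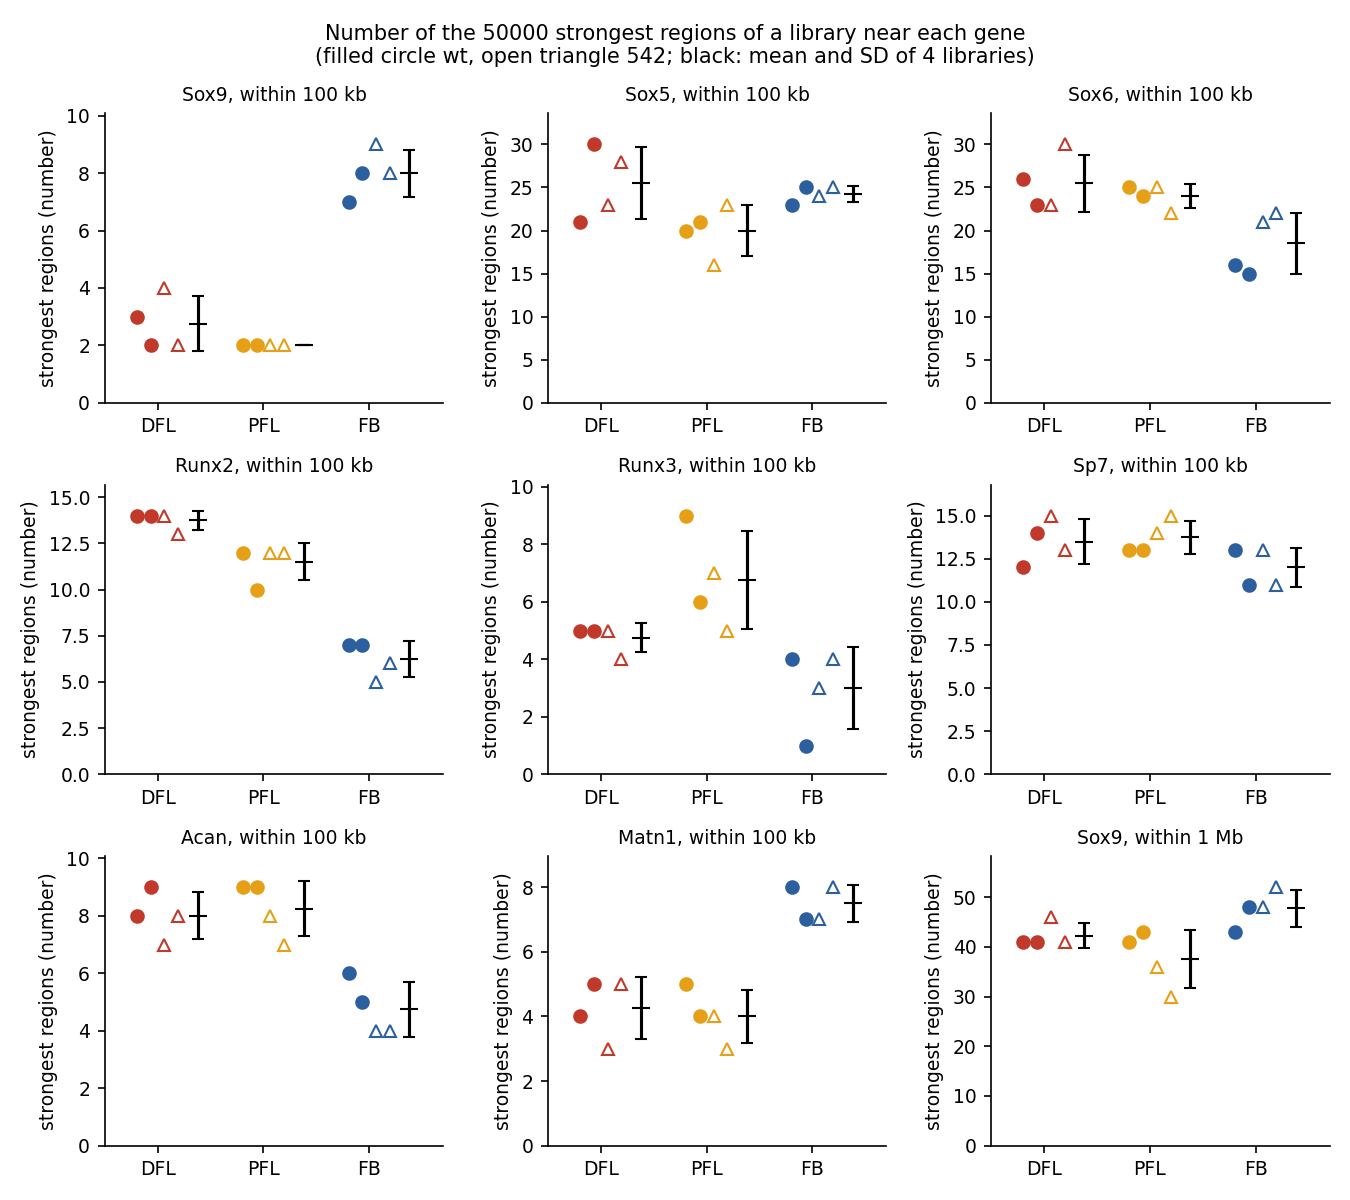
Number of the 50000 strongest regions of each library within 100 kb of each gene, and within 1 Mb of Sox9, by tissue, with wt as filled circles, 542 as open triangles and the mean and SD of 4 libraries as black bars. Around Sox9 and Matn1 the FB libraries are above all limb libraries, around Runx2 and Acan they are below all of them.

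Across the 241 member regions, limb and forebrain differed at most positions, as they did across all consensus regions. Between DFL and FB, 98 regions were higher in DFL and 79 higher in FB, where 33.2% and 34.3% of all consensus regions were. In 84 regions the 4 DFL libraries were all above the 4 FB libraries (28.6% of all consensus regions) and in 73 the reverse held (30.4%). Between PFL and FB, 88 were higher in PFL (32.6% of all) and 93 in FB (37.7% of all), with 81 and 82 regions free of overlap (29.6% and 32.9% of all). Of the 38 member regions over starts, 13 were higher in FB and 4 in DFL (35% and 12.3% of all consensus regions over starts). Of the 203 away from starts 66 were higher in FB and 94 in DFL (34.2% and 38% of all such regions).

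Some regions were called in every library of one tissue and in none of another. Open in all 8 limb libraries and uncalled in all 4 FB libraries were 34 member regions (10.9% of all consensus regions had this pattern). Of these 7 were at Sox5, 7 at Sox6, 6 at Runx2, 6 around Sox9, 3 at Runx3, 3 at Acan, 1 at Sp7 and 1 at Matn1. Open in the 4 FB libraries alone were 31 (11.2% of all), 15 of them around Sox9, 11 at Sox5, 3 at Sox6, 1 at Runx2 and 1 at Matn1. Runx3, Sp7 and Acan had none of the latter. All 12 libraries shared 65 member regions (32% of all). The DFL means of the 34 limb regions ran from 3.40 to 10.4 with a median of 6.18, and the FB means of the 31 forebrain regions from 4.62 to 17.6 with a median of 6.49.

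The member region with the largest difference between limb and forebrain in the limb direction at Runx2 lay beyond its 3′ end, 382.1 kb from the first start (chr17:44432175-44433380, intergenic). Its folds were 10.0, 10.9, 10.8 and 9.38 in DFL and 12.9, 11.5, 12.2 and 11.8 in PFL, and it was uncalled in FB. With FB at its floors, PFL minus FB was 3.08 ± 0.11 (adjusted p = 2.27e-07) and DFL minus FB 2.85 ± 0.11 (adjusted p = 2.29e-07). Here, and for each region below that was uncalled in every library of a tissue compared, the p-value rests on the floors and is no separate support. At Acan, a region 31.8 kb upstream (chr7:79021207-79021968, in an exon of Gm26633) had folds of 12.6, 10.4, 9.77 and 8.87 in DFL and 9.63, 12.4, 10.6 and 8.79 in PFL and was likewise uncalled in FB (DFL minus FB 2.85 ± 0.14, adjusted p = 2.48e-07). A second Acan region, 63.0 kb upstream (chr7:78989776-78991064), was open everywhere and higher in limb, with folds of 12.6, 11.6, 9.77 and 9.82 in DFL, 12.0, 13.4, 13.4 and 12.0 in PFL, against 6.30, 8.23, 6.08 and 6.46 in FB (DFL minus FB 0.70 ± 0.10, adjusted p = 0.000174).

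Within Sox5, introns held both limb and forebrain regions. The intronic region chr6:144298884-144299966 had folds of 10.0, 7.42, 8.90 and 9.81 in DFL and 11.8, 11.1, 12.1 and 9.74 in PFL and was uncalled in FB (PFL minus FB 2.97 ± 0.14, adjusted p = 2.39e-07). The intronic region chr6:144445724-144446478 was uncalled in limb and had folds of 10.51, 11.1, 11.8 and 12.2 in FB (DFL minus FB −2.90 ± 0.12, adjusted p = 2.29e-07). The strongest Sox5 region away from a start, chr6:144056332-144057582, was open in every library, at 11.8, 12.6, 9.41 and 10.3 in DFL, 12.0, 12.6, 10.9 and 10.2 in PFL, against 10.4, 9.74, 9.37 and 9.12 in FB. It was higher in PFL than in FB by 0.24 ± 0.07 (adjusted p = 0.00989), which depth as a covariate raised to adjusted p = 0.142.

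The strongest region of Sox6 away from a start, in an intron (chr7:115645179-115646482), was open in all tissues and graded between them. Its folds were 10.4, 13.2, 10.1 and 10.95 in DFL, 6.70, 6.48, 9.36 and 9.59 in PFL, against 15.5, 15.2, 14.5 and 13.7 in FB, 3 ranges without overlap. DFL minus PFL was 0.49 ± 0.08 (adjusted p = 0.00208), DFL minus FB −0.41 ± 0.08 (adjusted p = 0.0019) and PFL minus FB −0.90 ± 0.08 (adjusted p = 8.17e-06). The strongest Runx3 region, in an intron (chr4:135166184-135167260), was lower in FB. It had folds of 9.92, 11.1, 7.99 and 9.74 in DFL, 8.42, 9.03, 9.63 and 8.22 in PFL, against 5.14, 3.83, 5.74 and 3.08 in FB (DFL minus FB 1.156 ± 0.20, adjusted p = 0.00057). DFL and PFL overlapped (adjusted p = 0.765). The strongest such regions of Sp7, 9.7 kb upstream, and of Matn1, 82.6 kb upstream, were open in all 12 libraries, at 5.77 to 8.95 and at 4.42 to 10.6, and no tissue comparison passed.

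**Figure D3:**
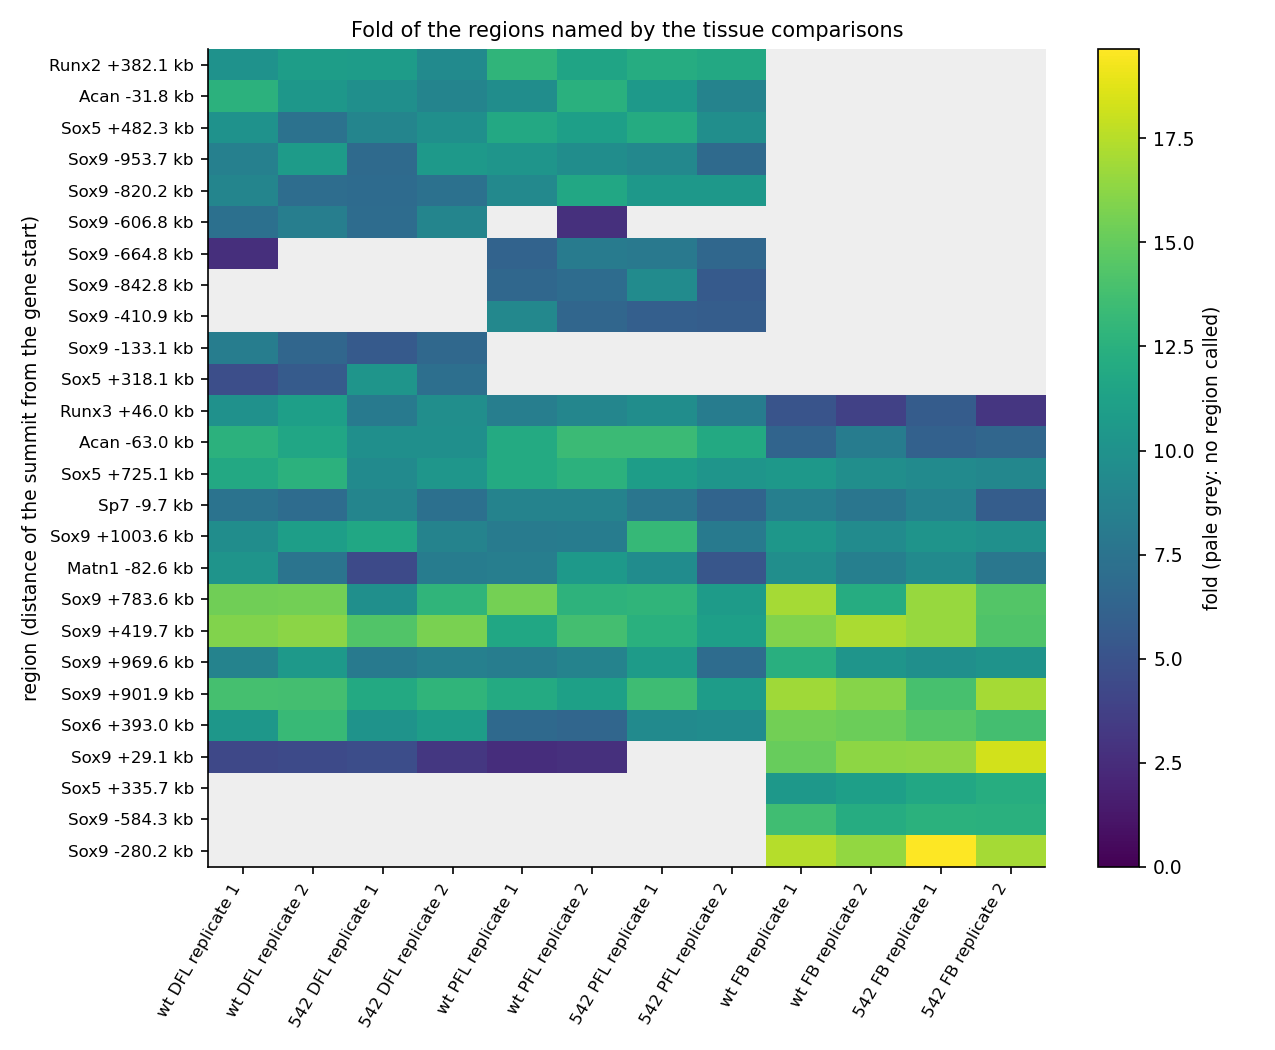
Fold in each of the 12 libraries (columns) of the regions named for the tissue comparisons or as the strongest of their locus (rows, by gene and distance of the summit from its first start), with pale grey for libraries with no region. The limb regions at the top are uncalled in all FB libraries and the forebrain regions at the bottom, from 335.7 kb inside Sox5 to 584.3 and 280.2 kb upstream of Sox9, are uncalled in all limb libraries.

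The 2 sides of Sox9 are given apart. Upstream, 21 of 37 regions were higher in DFL than in FB and 8 lower, and downstream 9 of 47 were higher and 24 lower, where 33.2% and 34.3% of all consensus regions were. Between PFL and FB the counts were 16 higher and 10 lower upstream, and 7 higher and 31 lower downstream, where 32.6% and 37.7% of all were. Of the 6 limb regions uncalled in FB around Sox9, 5 lay upstream. Of the 15 forebrain regions uncalled in limb, 10 lay downstream, with FB means of 4.62 to 8.19, and 5 upstream, with FB means of 6.10 to 17.6. These counts over regions of one domain are a description, since neighbouring regions are not independent.

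The forebrain region 280.2 kb upstream (chr11:112501694-112502393) had the largest difference of all 241. Its folds were 17.5, 16.4, 19.6 and 17.01 in FB and it was uncalled in all limb libraries. With DFL at its floors, DFL minus FB was −3.53 ± 0.13 (adjusted p = 2.29e-07). A second one, 584.3 kb upstream (chr11:112197322-112198449), had folds of 13.6, 12.2, 12.53 and 12.4 in FB. It was uncalled in the 8 limb libraries but had a fold of 3.86 in the additional wt DFL library. Another forebrain region lay 29.1 kb downstream of the start (chr11:112810600-112812178). It had folds of 15.1, 16.3, 16.4 and 18.3 in FB, 4.25, 4.38, 4.61 and 3.21 in DFL and 2.57 and 2.71 in wt PFL, and was uncalled in 542 PFL. PFL minus FB was −3.02 ± 0.14 (adjusted p = 2.31e-07), and DFL was above PFL (1.00 ± 0.14, adjusted p = 0.000618).

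On the limb side, the region 953.7 kb upstream (chr11:111827966-111829101) had folds of 8.56, 10.8, 6.82 and 10.6 in DFL and 10.2, 9.65, 9.17 and 6.79 in PFL. The region 820.2 kb upstream (chr11:111961167-111962541) had 8.93, 7.06, 6.89 and 7.33 in DFL and 9.28, 11.8, 10.48 and 10.50 in PFL. Both were uncalled in FB, with DFL minus FB of 2.66 ± 0.18 (adjusted p = 9.14e-07) and 2.39 ± 0.14 (adjusted p = 4.19e-07). The 5 regions of the domain with the highest mean fold over all 12 libraries, uncalled ones at their floor, lay downstream at neighbouring genes and were open in all 12. In FB alone, the regions 280.2 kb upstream and 29.1 kb downstream had higher means (17.6 and 16.5) than each of these 5. The 5 regions with the highest mean over all 12 libraries lay over the starts of 2610035D17Rik, Slc39a11, Fam104a (with D11Wsu47e) and Cdc42ep4 and in an intron of Sdk2. The start of the non-coding gene 2610035D17Rik (chr11:113201313-113202101) had folds of 15.9, 16.3, 14.3 and 15.7 in DFL, 11.1 to 13.7 in PFL, against 15.9, 17.2, 16.6 and 14.3 in FB. DFL was above PFL (0.35 ± 0.08, adjusted p = 0.00904).

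Over the whole domain of 1 Mb to each side, the number of strong regions differed less than within 100 kb. It was 41, 41, 46 and 41 in DFL, 41, 43, 36 and 30 in PFL, against 43, 48, 48 and 52 in FB. PFL minus FB was −0.35 ± 0.07 (adjusted p = 0.00019), a call in that direction that 30.2% of 20331 domains of this size had. PFL and FB met at 43, and the lowest PFL numbers, 36 and 30, were those of 542, whose PFL libraries were the shallowest of all. The exact permutation test gave p = 0.0571 for PFL against FB and for DFL against FB (two-sided, unadjusted). DFL minus FB was −0.17 ± 0.07 (adjusted p = 0.0327, a call that 32.8% of domains had), which was lost when any 1 of either wt DFL, 542 DFL replicate 2, wt PFL replicate 2, wt FB replicate 2 or 542 FB replicate 2 was left out (adjusted p from 0.05002 to 0.148). With all deposited regions counted, both differences were −0.02 and −0.04 with adjusted p = 0.882 and 0.694.

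**Figure D4:**
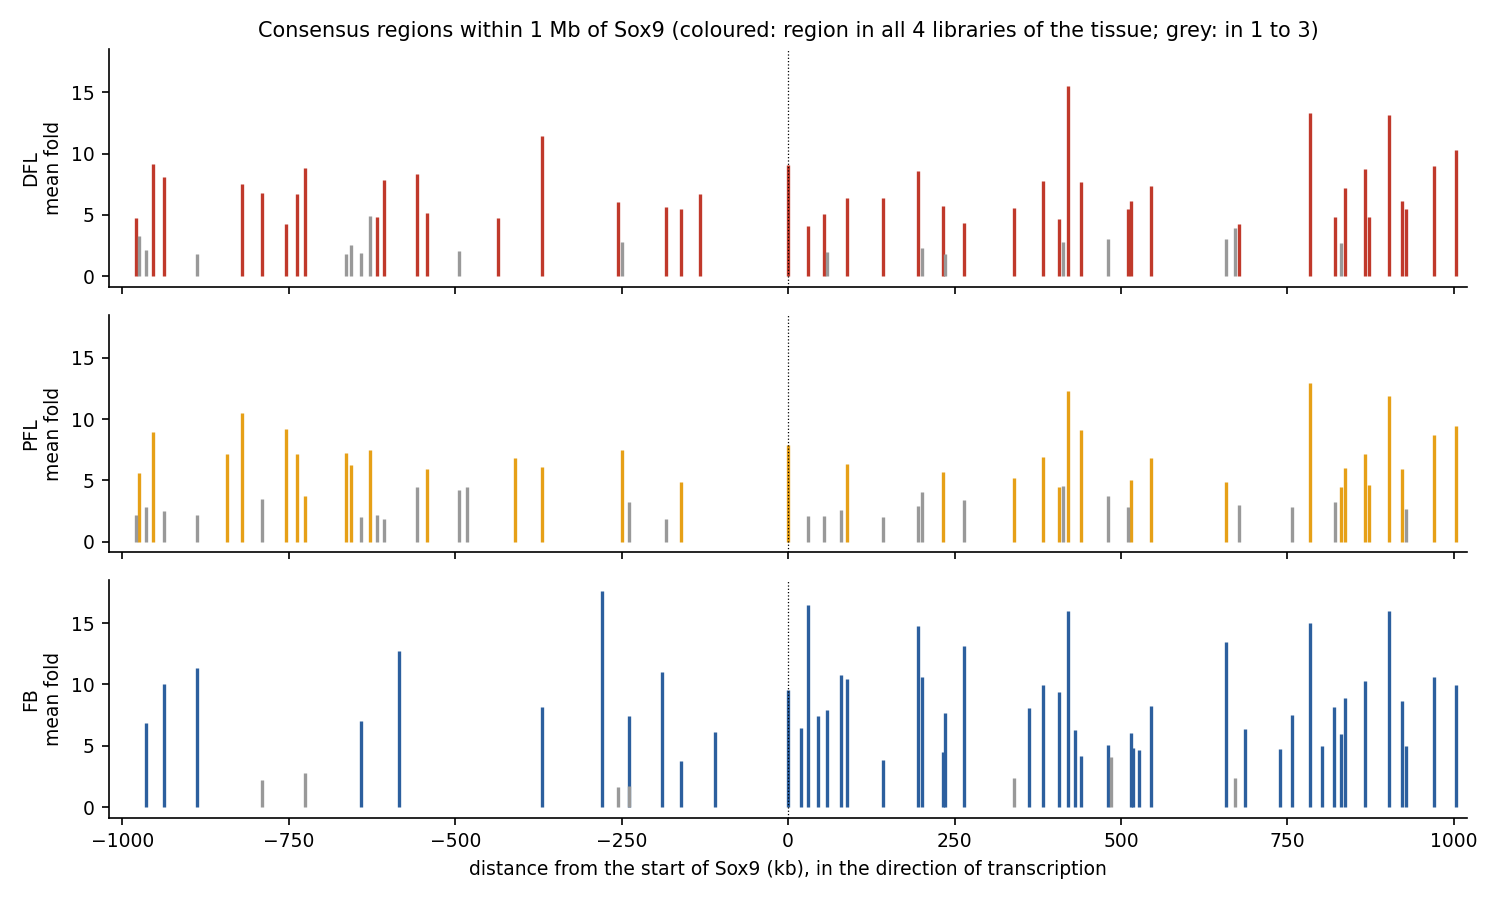
Mean fold in each tissue of the 84 consensus regions around Sox9, by distance in kb from its start in the direction of transcription. Bars are coloured where all 4 libraries of the tissue have a region and grey where 1 to 3 have one, in which case the others enter the mean at their floor. FB bars are dense downstream of the start and sparse upstream, where the DFL and PFL bars prevail.

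Between the 2 parts of the forelimb, 51 member regions were higher in DFL than in PFL and 29 higher in PFL, where 15.1% and 11.3% of all consensus regions were. In 45 the DFL libraries were all above the PFL libraries (13.3% of all), and in 17 the PFL libraries were all above the DFL libraries (8.32% of all). Around Sox9 the counts were 21 and 14, at Sox5 13 and 5, at Sox6 10 and 4, at Runx2 5 and 2, at Acan 1 and 1, at Matn1 1 and 0, at Sp7 0 and 1 and at Runx3 0 and 2. Of the 38 regions over starts 4 were higher in DFL and 1 in PFL (4.87% and 3.12% of all regions over starts). Open in the 4 DFL libraries and in no other were 5 member regions (1.9% of all consensus regions had this pattern), 2 upstream of Sox9 and 1 each at Sox5, Sox6 and Runx2. Open in the 4 PFL libraries alone were 4 (1.72% of all), 2 upstream of Sox9 and 2 at Sox5. A further 3 were open in all DFL and FB libraries and in no PFL library (0.971% of all), and none was open in PFL and FB alone (0.265% of all).

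The distal region with the largest difference lay 133.1 kb upstream of Sox9 (chr11:112648886-112649570, intergenic). Its folds were 8.35, 6.48, 5.53 and 6.61 in DFL and it was uncalled in the other 8 libraries (DFL minus PFL 2.14 ± 0.13, adjusted p = 4.85e-06). The additional wt DFL library had it too, at 9.28. A Sox5 intron held another (chr6:144463498-144464309), with folds of 4.75, 5.65, 10.2 and 7.16 in DFL, 12.97 in the additional DFL library and no region in the 8 others (2.14 ± 0.14, adjusted p = 6.35e-06). It lies between the intronic limb region and the outermost start of Sox5. The region 606.8 kb upstream of Sox9 (chr11:112174855-112176062) had folds of 7.27, 8.40, 6.93 and 8.97 in DFL and of 2.71 in wt PFL replicate 2, and it was uncalled in the other PFL and in the FB libraries (2.14 ± 0.19, adjusted p = 3.54e-05).

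The 3 proximal regions with the largest differences were all upstream of Sox9. The region 842.8 kb upstream (chr11:111938923-111939743) had folds of 6.59, 6.93, 9.50 and 5.59 in PFL and was uncalled in the other 8 libraries and in the additional DFL library (DFL minus PFL −2.20 ± 0.17, adjusted p = 1.39e-05). The region 410.9 kb upstream (chr11:112370942-112372044) had folds of 9.14, 6.48, 5.94 and 5.79 in PFL and was uncalled in the 4 DFL libraries, but the deeper additional DFL library had it at 4.28 (−2.14 ± 0.14, adjusted p = 5.70e-06). The region 664.8 kb upstream, in an intron of Gm11680 (chr11:112116998-112117701), had folds of 6.27, 8.14, 7.92 and 6.59 in PFL and 2.64 in wt DFL replicate 1, and 5.57 in the additional DFL library (−2.003 ± 0.18, adjusted p = 3.76e-05). Uncalled at these depths is therefore not the same as closed.

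**Figure D5:**
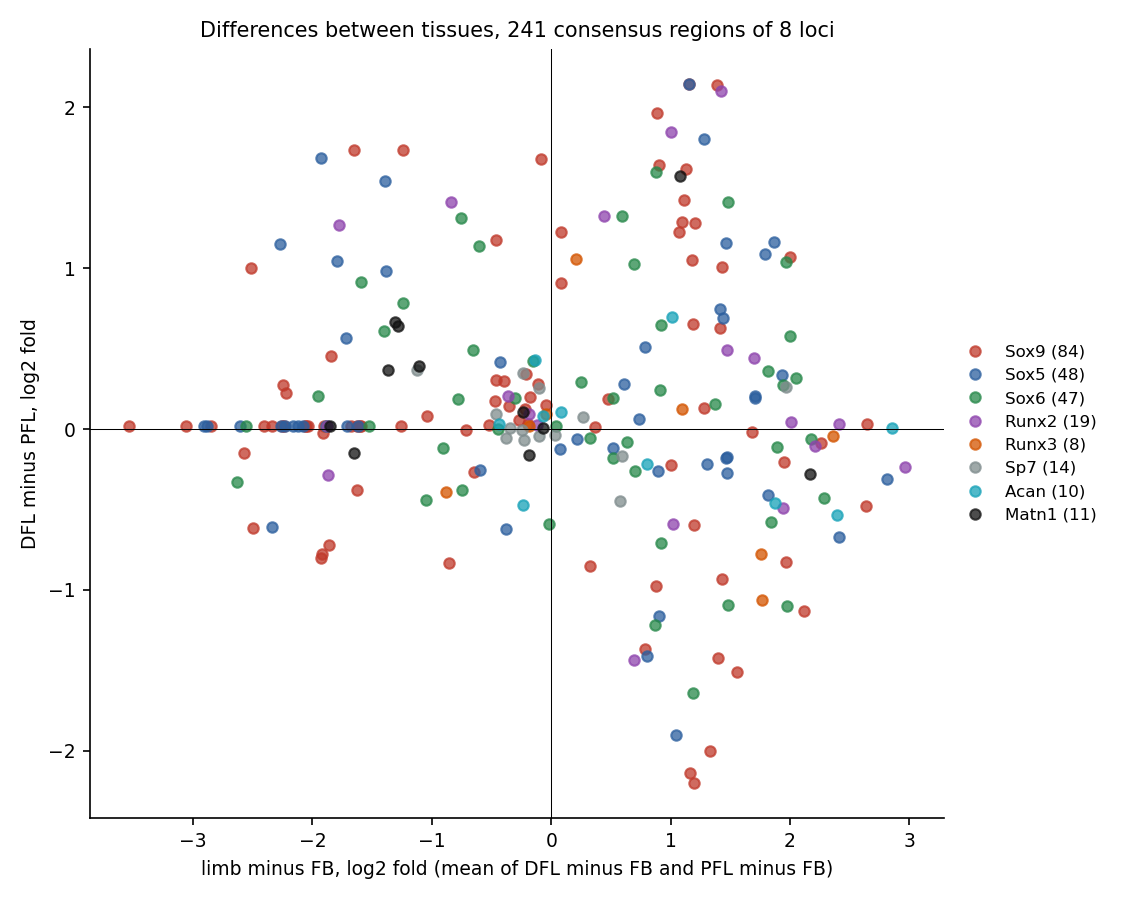
Log2 difference in fold between DFL and PFL (vertical) against that between limb and FB (horizontal, the mean of both limb tissues minus FB) for the 241 consensus regions, coloured by locus. Regions uncalled in both limb tissues line up near 0 on the vertical axis, since both then carry their floor, and the strongest differences between DFL and PFL, up to 2.14 and down to −2.20, lie right of the middle.

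The genotypes differed at few of these regions. Averaged over the 3 tissues, 0 of 241 regions were higher in 542 and 3 lower, where 0.641% and 1.71% of all consensus regions were. The 542 libraries of the limb were shallower than the wt ones, and with depth as a covariate no member region was called in either direction. Over the start of Prr13, a neighbour of Sp7 (chr15:102458507-102459399), the folds were 12.7, 10.4, 9.70 and 8.45 in DFL, 11.04, 11.7, 7.74 and 8.33 in PFL, against 14.2, 15.5, 12.1 and 12.8 in FB, lower in both 542 libraries than in both wt libraries of each tissue (−0.36 ± 0.07, adjusted p = 0.0361). The call was lost when any 1 of 8 libraries was left out, namely wt DFL replicate 1, 542 DFL replicate 2, either wt PFL, either wt FB or either 542 FB replicate (adjusted p from 0.0587 to 0.0995). It was also lost under quantile normalization, with depth as a covariate or with the additional library. The region 975.3 kb upstream of Sox9 (chr11:111806756-111807385) had folds of 4.69 and 5.25 in wt DFL, none in 542 DFL, 6.59 and 7.84 in wt PFL, 4.36 and 3.60 in 542 PFL and none in FB (−0.81 ± 0.11, adjusted p = 0.0073). In an intron of Slc39a11 757.5 kb downstream (chr11:113539273-113540124), the folds were 4.50 and 3.62 in wt PFL, none in 542 PFL, 10.7 and 9.08 in wt FB, 5.19 and 5.08 in 542 FB and none in DFL (−0.74 ± 0.11, adjusted p = 0.0123).

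Within single tissues, 1 member region was higher in 542 DFL (0.653% of all consensus regions) and 6 lower (2.36%), 0 were higher in 542 PFL (0.573%) and 7 lower (1.83%), and in FB 0 were called in either direction (0.326% and 0.398%). In all 14 of the limb calls at least 1 of the 4 libraries was uncalled, so that they rest on the floor, and with depth as a covariate 1 of them was left, in DFL. The single region higher in 542 DFL, 656.8 kb upstream of Sox9 in an intron of Gm11680 (chr11:112125115-112126178), was uncalled in wt DFL and had folds of 3.69 and 3.40 in 542 DFL, 6.19 and 6.48 in wt PFL and 7.48 and 4.79 in 542 PFL. The difference in DFL was 1.25 ± 0.22 (adjusted p = 0.0202), a call lost under 9 of 23 alternatives. The third Sox5 start was among the 6 lower in 542 DFL (−1.02 ± 0.18, adjusted p = 0.0178). None of the 8 loci differed between genotypes in the number of strong regions, averaged over tissues, where 0.591% and 0.363% of all loci did. In DFL alone 0 of the 8 did (0.223% of all loci were higher and 0.264% lower in 542), and 0 of the 8 had an interaction of DFL minus PFL with genotype (0.187% and 0.254%). In the domain of 1 Mb around Sox9, PFL had 41 and 43 in wt and 36 and 30 in 542 (−0.34 ± 0.09, adjusted p = 0.0598). Averaged over tissues, the number of strong regions in the domain did not pass (−0.04 ± 0.05, adjusted p = 0.647). The 542 limb libraries held fewer deposited regions than the wt ones. With all deposited regions counted, the domain was lower in 542 averaged over tissues (−0.44, adjusted p = 2.40e-05). The part of depth in this last difference was not tested.

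Whether a tissue difference itself depended on the genotype was tested by the interaction. DFL minus PFL was higher in 542 than in wt at 3 regions and lower at 0 (0.321% and 0.329% of all consensus regions). DFL minus FB was higher at 0 and lower at 1 (0.193% and 0.492%), and PFL minus FB higher at 0 and lower at 3 (0.202% and 0.459%). The 3 regions of the first and the last count were the same ones, called in both wt PFL libraries and in neither 542 PFL library. One lies in a Sox5 intron 355.2 kb from the first start (chr6:144426627-144427468), with folds of 4.50 and 4.37 in wt PFL, 4.25 and 5.78 in wt DFL, 7.32 and 6.71 in 542 DFL and none in FB. One lies 194.9 kb downstream of the Sox9 start (chr11:112976708-112977738), with folds of 4.02 and 4.37 in wt PFL, 6.47 and 9.17 in wt DFL, 9.56 and 9.29 in 542 DFL and 13.3 to 16.0 in FB. The last lies 238.6 kb upstream of Sox9 (chr11:112543366-112544035), with folds of 5.15 and 4.61 in wt PFL, none in DFL and 2.44 in 542 FB replicate 1 only. The 542 PFL libraries were the shallowest of all, and with depth as a covariate 1 of the 3 interactions of DFL minus PFL was left and none of PFL minus FB.

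Other genes of the skeleton were counted by the same locus fit, in 3 lists chosen with earlier results of these data known. Of all loci 16.3% had more in DFL than in FB and 18.4% fewer, 18% more in PFL than in FB and 18.7% fewer, and 3.36% more in DFL than in PFL and 3.44% fewer. Of 16 cartilage matrix genes 15 were tested, and 7 had more strong regions in DFL than in FB (Col9a1, Col11a1, Hapln1, Matn3, Epyc, Ucma and Prg4) and 1 fewer (Cnmd), with a median log2 difference of 0.31 against −0.01 over all loci. The same 7 had more in PFL than in FB and 0 fewer. Of 18 regulators and signals of cartilage 17 were tested, and 8 had more in DFL than in FB (Nkx3-2, Barx2, Foxc1, Pthlh, Bmpr1b, Wwp2, Hdac4 and Shox2) and 3 fewer (Ihh, Fgfr3 and Mef2c), with a median of 0.34. Between PFL and FB the counts were 6 and 2. Of 16 bone regulators and matrix genes 7 had more in DFL than in FB (Dlx5, Dlx6, Msx2, Twist1, Twist2, Zfp521 and Col1a2) and 3 fewer (Alpl, Bglap and Dmp1), with a median of 0.41. Between PFL and FB they were 7 and 2. Between DFL and PFL, 1 of 15 matrix genes had more in DFL (Prg4) and 1 more in PFL (Epyc), 2 of 17 cartilage regulators had more in PFL (Barx1 and Wwp2), and 1 of 16 bone genes had more in DFL (Msx2) and 2 more in PFL (Dmp1 and Col1a1). No gene of the 3 lists differed between genotypes.

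Marker loci of limb and forebrain went with these labels, and those of distal and proximal limb did so only in part. Of 6 limb mesenchyme markers 5 had more strong regions in DFL than in FB. Their summed number was 58 to 61 in DFL, 48 to 56 in PFL and 29 to 30 in FB. Of 7 forebrain markers tested 6 had more in FB than in DFL and 7 more than in PFL, with sums of 42 to 47 in DFL, 34 to 40 in PFL and 69 to 85 in FB. Of 5 muscle markers 2 (Myod1 and Myog) had more in PFL than in DFL, with sums of 17 to 22 in DFL, 28 to 36 in PFL and 25 to 30 in FB. Of 4 distal limb markers only Msx1 had more in DFL than in PFL, and Hoxa13 and Hoxd13 did not pass, with sums of 37 to 44 in DFL and 31 to 35 in PFL. Of 3 proximal limb markers 0 differed between them, with sums of 13 to 17 in DFL, 15 to 18 in PFL and 18 to 26 in FB. Meis1 had more in FB than in either, and Shox2 had more in either than in FB. Of 4 endothelial markers 2 had more in limb than in FB (sums of 29 to 36 against 21 to 24). Ectoderm, blood and neural crest markers had sums of 15 to 23, 46 to 56 and 29 to 37 over all tissues, none differed between DFL and PFL, and 0 of these 3 lists had a gene called between genotypes. No marker list was at 0 in any library, and the part of other cell types in the differences was not tested.

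Among the 16560 genes with a mean of at least 3 strong regions within 100 kb, those whose number was most like that of Sox9 over the 12 libraries included Nr1h4 (Pearson r = 0.984) and Gpr45 (0.981). Nr1h4, which encodes the bile acid receptor FXR, had 5 to 7 in limb and 9 to 11 in FB, and Gpr45, which encodes an orphan receptor, 7 to 8 and 11 to 13. The 12 points share their libraries and their depth.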

How the data were processed

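ATAC-seq was done by the authors on 13 libraries of E12.5 mouse tissue, 12 of which fall into 6 groups of 2 by genotype and tissue from the sample labels. The authors trimmed reads with Cutadapt and aligned them with bowtie2, wt on mm10 and 542 on the mutant genome, kept alignments of high mapping quality with bamtools, removed duplicates with Picard, converted pairs to tags with bedtools and called regions in each library alone with MACS2, without a control, each tag being extended to 200 bp centred on the Tn5 insertion and summits listed separately. The deposited fold is a ratio of tags to local background within 1 library. The authors' −log10 p-value was used for depth and their −log10 q-value for ranking. In the deposited files the score equals 10 times this q-value cut to an integer, and it was left aside. No count table and no scaling between libraries enters them.

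Lines with the same chromosome, start and end were taken as 1 region with its strongest summit, and chromosome 2 from 75 Mb on, whose coordinates differ between the genomes, was left out. Consensus regions joined the 50000 regions of each library with the highest −log10 q and kept those in at least 2 of 12 libraries. The value of a library was the log2 of the highest fold of any overlapping region (at least 1 bp), or else of its lowest fold. limma 3.58.1 in R 4.3.3 (trend, empirical Bayes, 6 residual degrees of freedom) fitted 6 group means over all 83823 consensus regions, and over log2(number + 1) of all protein-coding loci. Tissue contrasts averaged the genotypes and genotype contrasts the tissues. Adjusted p-values are Benjamini-Hochberg over all regions or loci, with a threshold of 0.05. Depth is the tag total recovered from the fold and p-value of summits, an estimate that limits what can be called. Python 3.11.15 with numpy 2.4.6, pandas 2.3.3 and matplotlib 3.10.9 was used, with GENCODE M21 annotation and GRCm38 sequence. The fit was also run on simulated data with known changes, which were not drawn to match differences that rest on the floor.

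Regions named are, by rule, the strongest over a start of each member, the 3 with the largest non-overlapping difference per tissue contrast and direction, up to 3 per direction for genotype, the 5 strongest around Sox9 and the strongest away from a start in the 7 other loci. Sequences are shown for the first 2 of these per tissue contrast and direction, less any that overlap an exon, and likeness to Sox9 is the Pearson r of the number of strong regions within 100 kb over the 12 libraries, for the 3 highest genes, 1 of which is not reported here. The other start clusters and the other regions called between genotypes or in an interaction were added after their values were seen. The members and lists were chosen with earlier results of these data known. Alternatives were other region sets, floors, scaling, depth as a covariate, a replicate block, another overlap, the additional library and each library left out, and an exact permutation test for loci.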

Additional observations from a re-analysis of the deposited data

Results flagged for a closer look

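In 6 of 98 groups of 4 libraries, 1 library stood apart from the other 3 by Dixon's criterion, whose critical value is 0.829. Chance gives about 1 in 20. Where counts are small, 1 unit is enough for this. The gap was 1.0 of the whole range for the number of strong regions within 100 kb of Runx2 in DFL (14, 14, 14 and 13), 1.0 for the same in PFL (12, 10, 12 and 12), 1.0 for Runx3 in DFL (5, 5, 5 and 4) and 1.0 for the 1 Mb domain of Sox9 in DFL (41, 41, 46 and 41). It was 0.96 for the fold of the Sdk2 intron region in the Sox9 domain (chr11:113785143-113786389) in PFL, where 542 replicate 1 had 13.2 and the others 8.08 to 8.28. It was 0.836 for the fold over the start of Cdc42ep4 (chr11:113750070-113752292) in FB, where wt replicate 1 had 12.4 and the others 9.80 to 10.2.

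At 4 regions a tissue difference depended on the genotype by the interaction term. In the Sox5 intron 355.2 kb from its first start, the interaction with genotype was 2.00 for DFL minus PFL (log2, adjusted p = 0.0184, limma) and −1.59 for PFL minus FB (adjusted p = 0.0442). At 238.6 kb upstream of Sox9 it was 1.71 (adjusted p = 0.0363) and −2.12 (adjusted p = 0.0124), and at 194.9 kb downstream of the Sox9 start 1.71 (adjusted p = 0.0242) and −1.63 (adjusted p = 0.026). At 975.3 kb upstream of Sox9 the interaction for DFL minus FB was −1.75 (adjusted p = 0.0304). In each case the region was uncalled in both 542 libraries of the limb tissue that differed, so the sizes rest on the floor.

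The additional wt DFL library, outside all groups, had 72 of its 50000 strongest regions within 1 Mb of Sox9, where the 4 DFL libraries had 41 to 46.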

How the results depend on the processing

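Results were recomputed under up to 12 other settings of the region fit or 7 of the locus fit, and with each library left out. Regions outside a smaller region set have no value there. With 1 library left out, the counts of member regions were 41 to 51 higher in DFL than PFL and 24 to 31 lower, 91 to 97 higher in DFL than FB and 73 to 85 lower, 84 to 89 higher in PFL than FB and 84 to 95 lower, and 0 to 2 higher in 542 and 2 to 7 lower. The count lower in 542, 3 in all, became 5 without 542 DFL replicate 1, 6 without 542 DFL replicate 2, 7 without 542 PFL replicate 1 and 5 without 542 PFL replicate 2. The count higher in 542 became 2 without wt DFL replicate 2 and 1 without 542 PFL replicate 2 or wt FB replicate 1. Loci with more strong regions in DFL than FB numbered 3 to 4, in FB than DFL 2 to 2, in PFL than FB 2 to 4 (2 without 542 PFL replicate 1 or 542 FB replicate 1), in FB than PFL 2 to 2, and 0 to 0 between DFL and PFL and between genotypes.

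From the 20000 strongest regions per library, which left 76 member regions, the counts in the same order were 12, 7, 24, 29, 22 and 38, and 1 lower in 542. From all deposited regions, which gave 532, they were 94, 72, 159, 139, 170, 158, 5 and 12. Genotype counts moved most. Higher and lower in 542 were 3 and 21 with −log10 q of at least 10, 2 and 5 with no filter on the number of libraries, 1 and 14 with a fold of 1 as floor and 1 and 5 with the additional library. One floor for all libraries gave 6 lower, the 5th percentile as floor (added after the data were seen) gave 1 higher, and depth as a covariate gave 0 lower. Quantile normalization gave 3 higher, which moved the share of genotype calls that were higher in 542 from 0.0% to 50.0% in member regions and from 27.3% to 46.1% in all, and the median PFL minus FB over all regions from −0.10 to 0.01. The cause was not tested.

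Of loci, the 20000 strongest regions gave 2 with more in PFL than DFL, 1 with more in FB than PFL and 1 with more in wt, all deposited regions 0 with more in FB than DFL, 1 with more in FB than PFL and 1 with more in wt, and a fold of at least 5 gave 1 with more in PFL than FB. Depth as a covariate gave 0 with more in FB than DFL, 2 with more in PFL than FB and 0 with more in FB than PFL. The permutation test, unadjusted, gave 1 with more in DFL than PFL. Reversed under the 20000 strongest were Sox5 DFL minus FB (−0.72, adjusted p = 0.0292), Matn1 PFL minus FB (0.44, adjusted p = 0.272) and Runx3 542 minus wt (−0.14, adjusted p = 3.61e-08, with no spread within any group). With −log10 q of at least 10, the weak calls dropped out and 9 differences at single regions became those of the floors, 0.0757 (542 minus wt in DFL, at the third Sox5 start and 249.9 kb upstream of Sox9), 0.11 (542 minus wt in PFL, at 5 regions), 0.026 (interaction of PFL minus FB in Sox5) and 0.019 (DFL minus PFL in Slc39a11). Calls within tissues ranged from 0 to 33 over these settings. Of 4016 checks of single regions 3729 kept direction and side of the threshold, 267 fell short of it, 11 passed it and 9 reversed.

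Same-numbered libraries deviated together with correlations of −0.0174 to 0.0125, so the numbers do not pair them. With the replicate number as a block, the region counts were 52, 28, 94, 79, 87, 93, 0 and 2 and those of loci 0, 0, 3, 2, 4, 2, 0 and 0.

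Regions below a library's calling limit carry a floor, and the depth of 37.5 to 70.7 M tags sets that limit. Depth was lowest in 542 PFL and highest in a wt FB library, so with 2 libraries per group depth and group cannot be fully told apart.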
